A study of Mus musculus with 24 samples.

Results

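Skin of allografted RAG2-/- mice given an antibody against IFNAR1 was compared with skin of allografted mice given an isotype control antibody, both at day 14, across all genes. The comparison took the 8 arrays whose titles carry these names, 4 anti-IFNAR1 and 4 isotype, of the 24 arrays in the series. All recipients were female and carried the RAG2-/- genotype, and both groups had received splenocytes of B10.D2 donors; the labels call this condition GVH-SSc, a graft-versus-host reaction in mice that resembles scleroderma. Shaved dorsal scapular skin was measured with Affymetrix 3' expression arrays. Arrays of syngeneic skin at day 14, from RAG2-/- mice given Balb/c splenocytes, are quoted as a reference level only, and the same antibody contrast at day 28 was used as a second set of arrays. The titles name no antibody for the syngeneic mice. Antibody clone, dose, schedule and the age of the mice are not given in the sources used here, and no label ties the 4 arrays within a group to 4 different mice, so p-values measure the spread between arrays.

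IFNAR1 and IFNAR2 are the chains of the receptor shared by all type I interferons. Ligand binding activates the kinases JAK1 and TYK2, and a complex of phosphorylated STAT proteins with IRF9 then binds the interferon-stimulated response element in front of antiviral genes such as those of the Ifit, Mx and Oas families. Type II interferon, made mainly by T and NK cells, uses another receptor and the gamma-activated site, and many genes respond to both. RAG2 is needed to assemble antigen receptors, so RAG2-/- recipients make no mature T or B cells while keeping innate cells such as macrophages, neutrophils and NK cells.

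Levels are given as log2(intensity + 16). A change is the anti-IFNAR1 mean minus the isotype mean in those units, ± SE from limma with n = 4 arrays a group. The offset of 16 understates changes of dim genes. Both groups carried the defining transcripts of skin. Krt5 lay between 14.08 and 14.70 on the 8 arrays, Krt10 between 13.77 and 16.04, and Col3a1 between 13.22 and 14.86. Skeletal muscle transcripts were bright as well, with Ckm between 14.21 and 15.03. The hair shaft keratins Krt31, Krt34 and Krt86 stayed at 5.06 or less, as did the B cell genes Cd79a and Ms4a1. Other B and plasma cell genes were brighter, with the immunoglobulin heavy chain gene Ighm at 10.47 to 12.72 and the joining chain gene Jchain at 6.88 to 9.53 on the 8 arrays, and Jchain at 4.27 to 4.86 on the syngeneic arrays. The mean of the 9 measured B and plasma cell genes was 5.75 to 6.24 on the 8 arrays and 5.01 to 5.32 on the syngeneic arrays.

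RNA quality differed between the groups on the control probe sets. The log2 ratio of the 3' to the 5' Gapdh probe set, which grows as RNA is shorter, was 2.13, 2.28, 4.81 and 4.19 on anti-IFNAR1 replicates 1 to 4 and 2.16, 1.26, 1.31 and 0.62 on the isotype replicates. The difference was 2.01 (two-sided exact permutation p = 0.0571; smallest possible p 0.0286 over 70 orderings). Isotype replicate 4 had the lowest ratio and stood apart in several gene groups, in most of them on the low side. The part of RNA quality in the gene results was not tested beyond the fits with the ratio as a covariate and without the arrays whose ratio was above 4, given with the groups below.

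**Figure D1:**
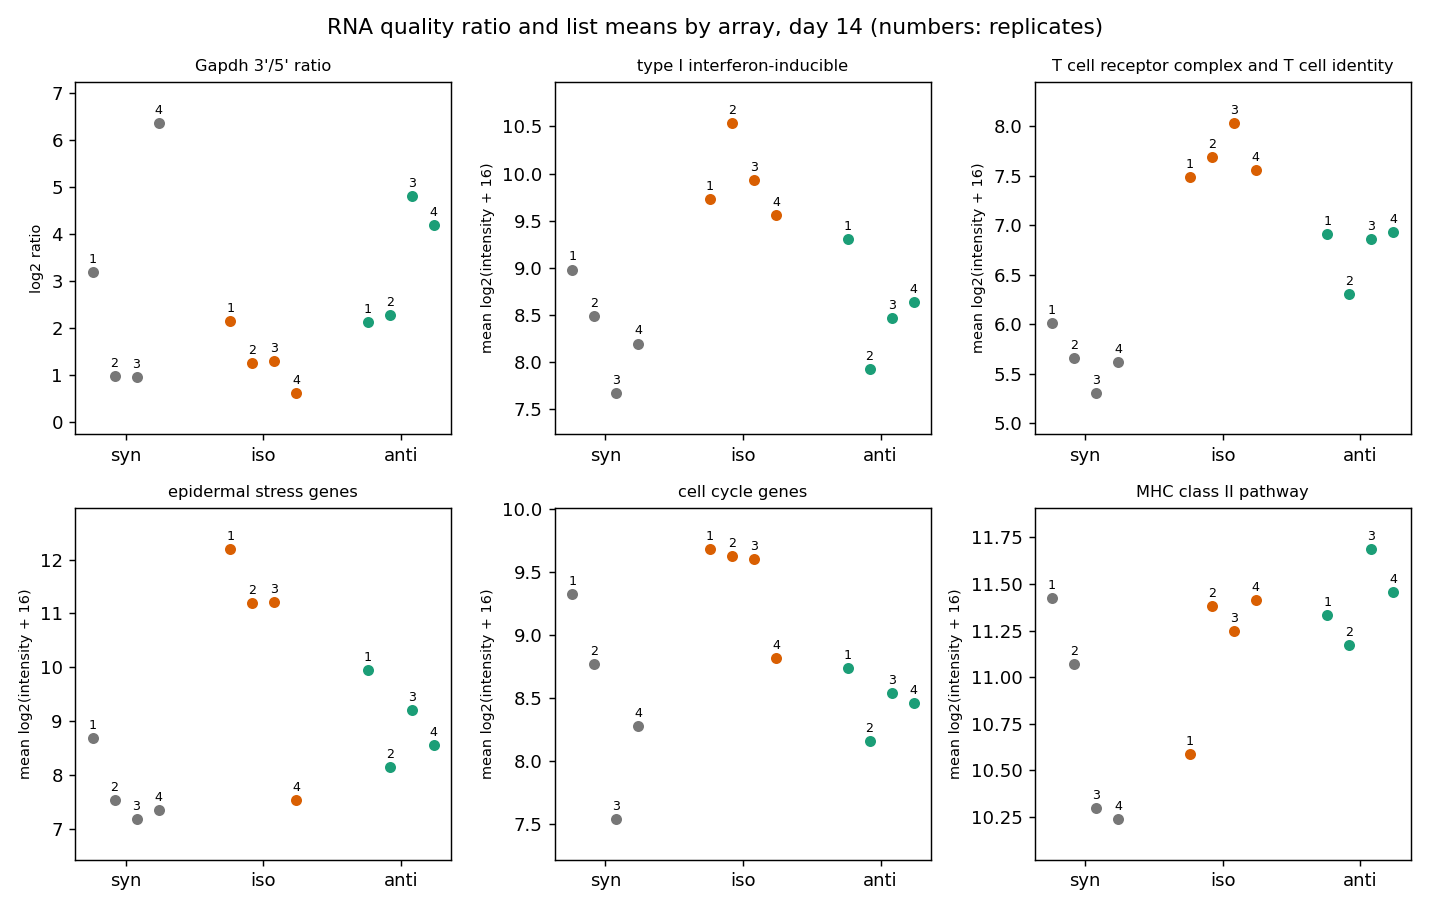
Gapdh 3'/5' log2 ratio and mean level, log2(intensity + 16), of 5 gene lists on each day 14 array; syn is syngeneic, iso isotype and anti anti-IFNAR1 skin, each point is 1 array and the number beside it is its replicate. Type I interferon-inducible means are 9.56 to 10.54 on the isotype arrays and 7.93 to 9.31 on the anti-IFNAR1 arrays, and isotype replicate 4 is low for epidermal stress and cell cycle genes.

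The genes that fell with anti-IFNAR1 included chemokines such as Ccl2, antiviral genes such as Oasl1 and T cell genes such as Cd8b1. Of 18193 genes, 148 (0.813%) passed limma's test at an adjusted p under 0.05, and such genes are called below. Of these, 119 (0.654% of all genes) fell and 29 (0.159%) rose. At least 2-fold changes were found for 73 of the genes that fell and 11 of those that rose. Over all genes the median change was 0.00 and 42.8% of the changes were below 0. The 4 anti-IFNAR1 values lay wholly below the 4 isotype values for 1366 genes (7.51%) and wholly above for 829 (4.56%).

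These calls rested on the spread pooled over all 24 arrays. A limma fit of the 8 arrays alone called 2 genes, Dock10 (-0.81) and Psma7 (-0.58), named here after their values were seen; it kept none of the 148, although all 148 had the same sign and 3455 genes had an unadjusted p under 0.05. The 12 arrays of day 14 gave 0 calls, with 2538 genes at an unadjusted p under 0.05. Single arrays moved the count from 32 without anti-IFNAR1 replicate 2, 34 without replicate 4 and 86 without replicate 3 to 625 without isotype replicate 4, of which 387 were lower (2.13% of all genes). It was 50, 49 and 47 without isotype replicates 1, 2 and 3, and 210 without anti-IFNAR1 replicate 1. In all, 22 genes were called without every one of the 8 arrays in turn, 21 of them lower and 1 higher. With the Gapdh ratio as a covariate 67 genes were called, 47 of them among the 148. Of the 67, 59 were lower (0.324% of all genes) and 8 higher (0.044%). Without the arrays above a ratio of 4 the count was 19, 15 of them among the 148, with 16 lower (0.0879%) and 3 higher (0.0165%). Of the 47 named called genes, 29 lost their call with the covariate and 38 without the high-ratio arrays. No named called gene changed sign in either fit, and with the covariate all 148 kept their sign. The high-ratio arrays included anti-IFNAR1 replicates 3 and 4, so the fit without them compared fewer arrays. Whether calls were lost through RNA quality or through lower precision was not tested. The split of 29 higher against 119 lower became 42 against 82 after quantile normalization and 70 against 93 after centring of array medians, which moved the median change of all genes to 0.11.

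**Figure D2:**
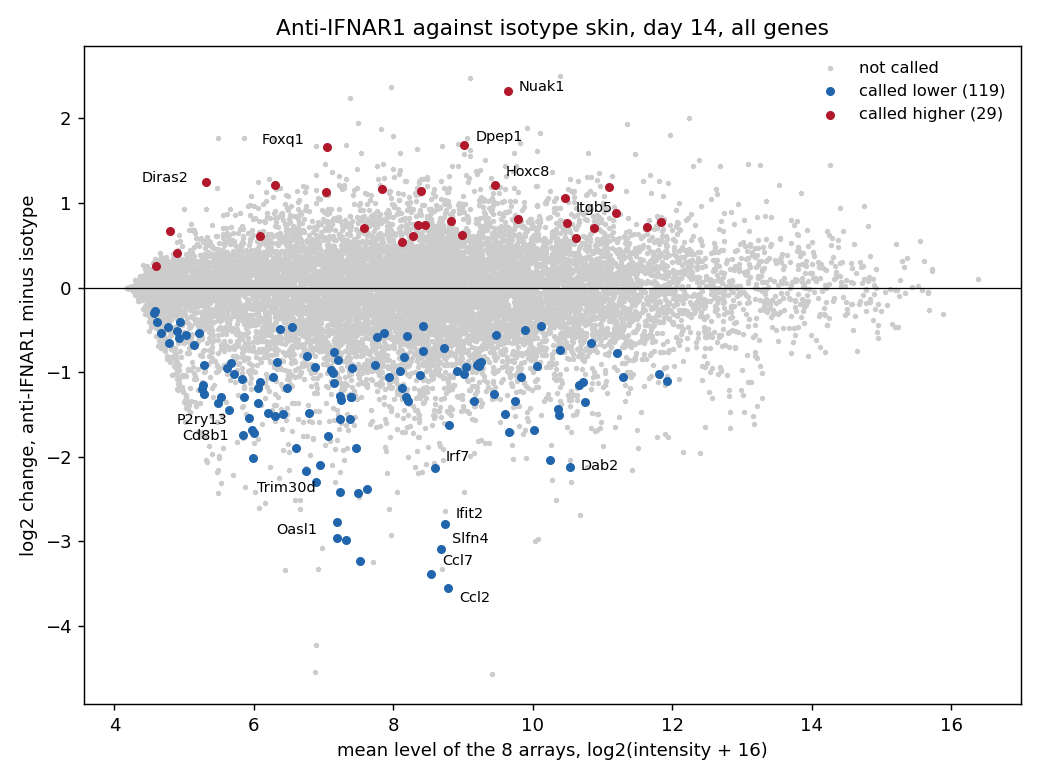
Change of every gene, anti-IFNAR1 minus isotype at day 14 (log2), against its mean level on the 8 arrays, log2(intensity + 16); each point is 1 gene, blue for the 119 that fell, red for the 29 that rose, grey for the rest. The genes that fell most, Ccl2 and Ccl7, lie below -3, and Nuak1 lies highest among those that rose.

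Most type I interferon-inducible genes had lower means with anti-IFNAR1. Of 28 measured list members, 27 had a lower mean and 6 (Oasl1, Ifit2, Mx1, Irf7, Samd9l and Isg20) fell, beside 0.654% of all genes. The list's median change was -1.31, against 0.00 over all genes, and the values of 16 members were wholly lower, beside 7.51% of all genes. Oas1b, the exception in direction, changed by 0.04. The list mean per array was 9.73, 10.54, 9.94 and 9.56 with isotype and 9.31, 7.93, 8.47 and 8.63 with anti-IFNAR1. Anti-IFNAR1 replicate 1 came close to the lowest isotype array, and the other anti-IFNAR1 arrays were at 8.63 or less.

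Oasl1, a member of the oligoadenylate synthetase family without synthetase activity, was at 8.71, 8.89, 8.51 and 8.60 on isotype arrays and at 6.87, 4.63, 5.05 and 6.33 on anti-IFNAR1 arrays. The groups were well apart, and the change was -2.96 ± 0.41 (adjusted p = 0.00286), or 7.78-fold. Syngeneic arrays lay between 5.02 and 6.18. Oasl1 stayed called when any 1 of the 8 arrays was left out, with a highest adjusted p of 0.016. Ifit2, an RNA-binding protein induced by interferon, was at 9.82, 10.78, 9.73 and 10.23 with isotype and at 8.58, 6.67, 7.29 and 6.86 with anti-IFNAR1. It fell by 2.79 ± 0.49 (adjusted p = 0.0127), with replicate 1 again the highest of the antibody group, and was called in 6 of the 8 fits without 1 array.

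Irf7, the transcription factor that amplifies type I interferon production, was at 9.41, 10.11, 9.87 and 9.29 with isotype and at 8.70, 6.50, 7.07 and 7.86 with anti-IFNAR1. It fell by 2.14 ± 0.44 (adjusted p = 0.0252). Mx1, a dynamin-like antiviral GTPase, varied more among the isotype arrays, at 6.95, 9.54, 8.29 and 7.39, and was at 6.79, 5.11, 5.26 and 5.81 with anti-IFNAR1. The groups were narrowly separate, and Mx1 fell by 2.30 ± 0.47 (adjusted p = 0.0252). Irf7 was called in 2 and Mx1 in 3 of the 8 fits without 1 array, with a highest adjusted p of 0.098 for both. Samd9l fell by 1.68 ± 0.38 (adjusted p = 0.0393) and the exonuclease gene Isg20 by 0.88 ± 0.19 (adjusted p = 0.0382). Samd9l was called in 2 of these fits.

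With the Gapdh ratio as a covariate the list's median was -1.37 and 2 members, Oasl1 and Ifit2, were called, beside 0.324% of all genes called lower. Without the arrays above a ratio of 4 the called member was Oasl1, beside 0.0879% of all genes called lower. With the 8 arrays alone there was none, where 0.011% of all genes were called lower. Without isotype replicate 4 there were 12, beside 2.13% of all genes. That array had the lowest isotype list mean, so leaving it out widens the difference of the list means by construction. Canonical members that were not called include Ifit1 (-1.27 ± 0.54, adjusted p = 0.246) and Ifit3 (-1.40 ± 0.47, adjusted p = 0.141).

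Further interferon-inducible genes stood among the 20 largest falls without being on that list. Trim30d, of the Trim30 family, was at 8.62, 8.84, 8.33 and 7.97 with isotype and at 6.40, 4.71, 6.72 and 6.27 with anti-IFNAR1, a change of -2.41 ± 0.38 (adjusted p = 0.00692). Ifit1bl1, an Ifit1-like gene, was at 8.29, 8.82, 7.02 and 7.20 against 6.10, 5.25, 5.81 and 5.51, a change of -2.17 ± 0.33 (adjusted p = 0.00592). Both kept their calls without any 1 of the 8 arrays. Ifi209, of the interferon-inducible p200 family, fell by 2.38 ± 0.49 (adjusted p = 0.0281). Ch25h makes 25-hydroxycholesterol and was at 9.11, 9.30, 9.02 and 6.86 with isotype, where replicate 4 stood apart, and at 5.98, 5.15, 6.39 and 5.68 with anti-IFNAR1. It fell by 2.77 ± 0.60 (adjusted p = 0.0339), and was called in 2 of the fits without 1 array, as Ifi209 was in 3. With the Gapdh ratio as a covariate Trim30d and Ifit1bl1 stayed called, without the arrays above a ratio of 4 Trim30d did, and Ifi209 and Ch25h lost their calls in both fits.

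**Figure D3:**
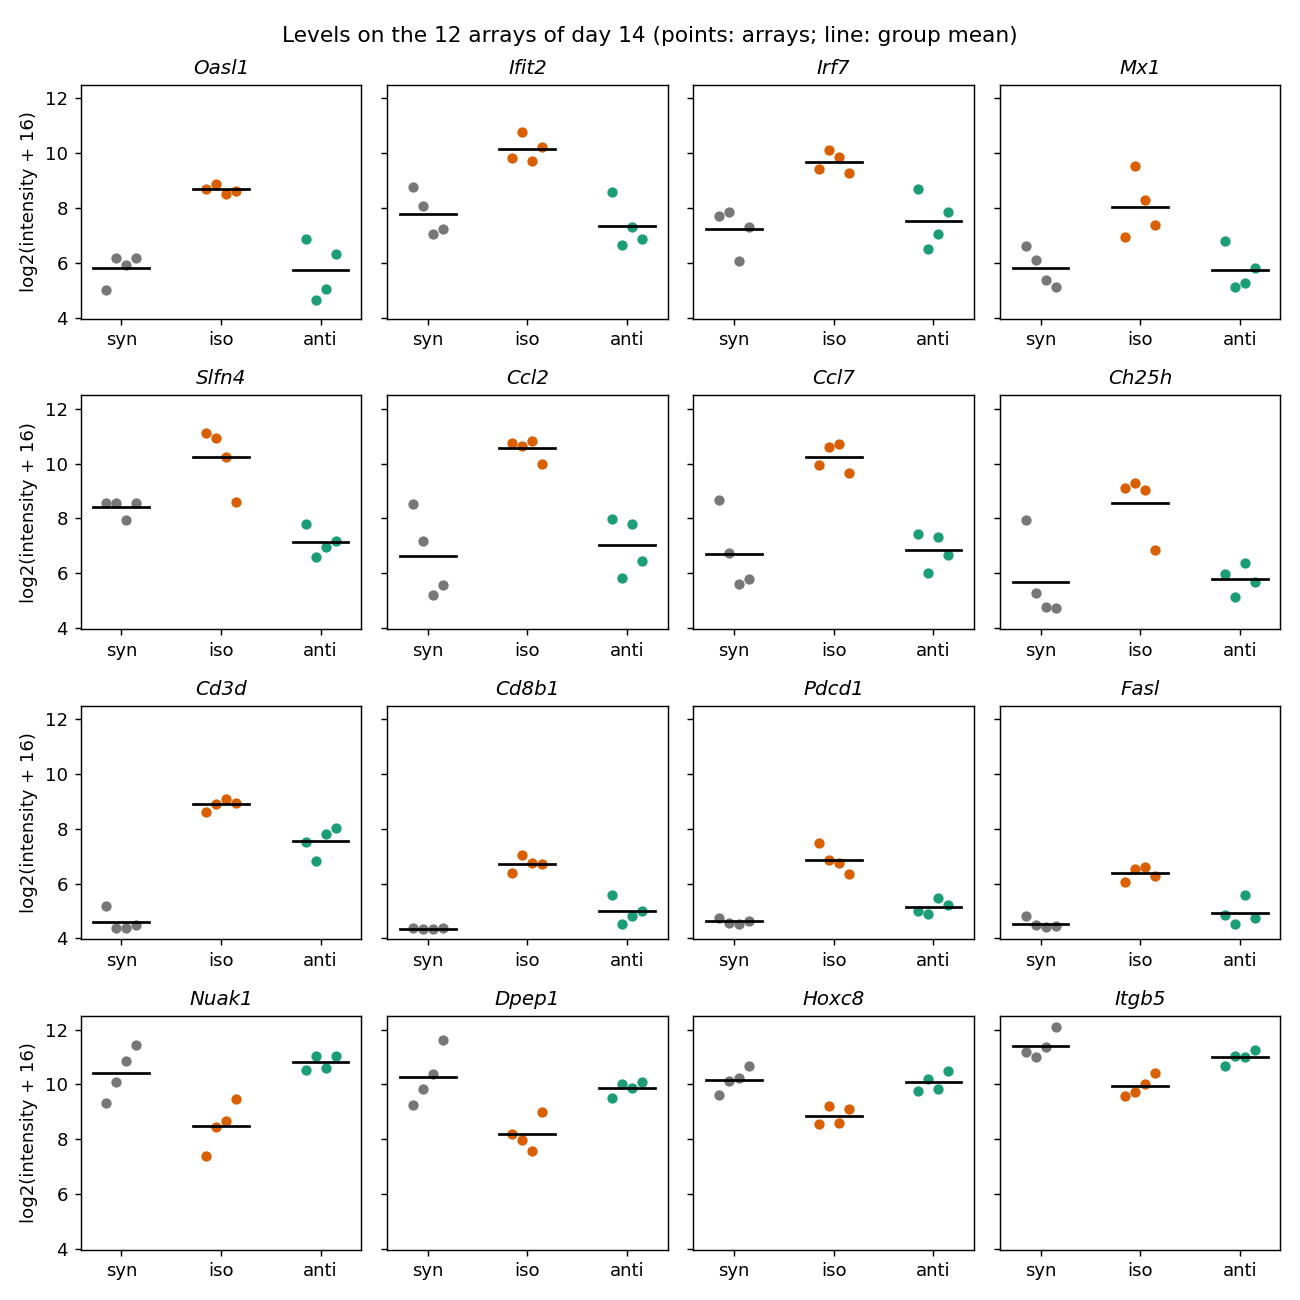
Levels, log2(intensity + 16), of 16 genes on the 12 arrays of day 14; each point is 1 array, lines are group means, and syn, iso and anti are syngeneic, isotype and anti-IFNAR1 skin. In the upper 3 rows the 4 anti-IFNAR1 values lie below all isotype values, and in the lowest row (Nuak1, Dpep1, Hoxc8, Itgb5) above them. Most of these genes were chosen among called genes without overlap.

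Promoter sequence was set beside these changes. RefSeq promoter windows of 300 bases around the annotated start (GRCm38.p6) were matched for 14452 of the genes tested. The core of the interferon-stimulated response element, searched on both strands as GAAA, any 2 bases and GAAA, was in 524 of them (3.63%). It was in 8 of the 18 matched members of the type I interferon-inducible list (44.4%), in 10 of the 101 matched genes that fell (9.9%) and in 1 of 23 that rose (4.35%). The gamma-activated site, searched on both strands as TTCNNNGAA, was in 8.57% of the genes tested, in 6 of the 18 members of the same list (33.3%), in 10 of the 101 that fell (9.9%) and in 0 of the 23 that rose. A match is a run of letters and not a shown binding site. None of the called members of the type I interferon-inducible list with a matched window held the core, so the windows printed below, chosen after the values were seen, are of the largest falls that held it, Trim30d and Ifit1bl1, and of the largest riser, Nuak1. Trim30d is at chr7:104507800-104508099 (minus strand) and its match begins 41 bases before the start site. Ifit1bl1 is at chr19:34599378-34599677 (minus strand), one of 2 windows in the table, with its match 23 bases before the start. Nuak1 is at chr10:84440619-84440918 (minus strand) and holds no match. Sequences are on the gene's strand, 5' to 3', with the match, which reads as the reverse complement of the core, in capitals.
Trim30d: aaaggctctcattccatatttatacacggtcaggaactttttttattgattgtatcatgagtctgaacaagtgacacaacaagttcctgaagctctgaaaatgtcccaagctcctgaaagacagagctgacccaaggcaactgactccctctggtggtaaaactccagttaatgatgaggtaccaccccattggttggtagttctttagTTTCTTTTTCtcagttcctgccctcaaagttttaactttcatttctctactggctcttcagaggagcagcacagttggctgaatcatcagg
Ifit1bl1: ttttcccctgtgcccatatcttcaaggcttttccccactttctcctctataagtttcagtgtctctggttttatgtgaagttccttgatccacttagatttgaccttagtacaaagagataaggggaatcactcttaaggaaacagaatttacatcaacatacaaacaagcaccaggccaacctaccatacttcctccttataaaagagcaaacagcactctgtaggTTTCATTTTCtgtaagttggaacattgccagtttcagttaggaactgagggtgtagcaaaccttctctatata
Nuak1: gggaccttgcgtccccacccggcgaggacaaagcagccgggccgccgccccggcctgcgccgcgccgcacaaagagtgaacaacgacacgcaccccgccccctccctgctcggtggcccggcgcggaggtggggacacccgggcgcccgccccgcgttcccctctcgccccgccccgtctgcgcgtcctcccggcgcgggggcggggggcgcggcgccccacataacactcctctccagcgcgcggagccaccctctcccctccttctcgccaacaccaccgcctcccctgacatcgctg

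The receptor, its ligands and its signalling genes showed no called change. None of the 14 measured members of that list was called in this limma fit, and the median change was -0.60. Ifnar1, the transcript of the antibody's target, was at 8.64, 8.64, 8.46 and 8.59 with isotype and at 8.22, 8.14, 7.93 and 8.14 with anti-IFNAR1. The groups did not overlap, but the change of -0.48 ± 0.29 did not pass (adjusted p = 0.41), it was -0.05 with the Gapdh ratio as a covariate, and a dimmer probe set of the gene changed by 0.13. The transcript is no check of an antibody that binds the protein. Ifnar2 changed by -1.02 ± 0.34 (adjusted p = 0.142), and dimmer probe sets of the gene changed by -0.04 and -0.70. Irf9 changed by -0.35 ± 0.32 (adjusted p = 0.651). Ifnb1, the gene of interferon beta, stayed between 4.38 and 4.40 on all 8 arrays, near the bottom of the scale. Ifng, the type II interferon gene, was at 7.74, 9.13, 8.32 and 7.03 with isotype and at 6.83, 5.94, 7.69 and 6.71 with anti-IFNAR1, so the groups overlapped (-1.26 ± 0.44, adjusted p = 0.157). Socs3, a feedback inhibitor of cytokine receptors, changed by -1.77 ± 0.55 (adjusted p = 0.115). Rag1 and Rag2 stayed at or below 4.67 on all 8 arrays.

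None of the 13 measured interferon gamma-inducible GTPases and relatives, a group that answers strongly to type II interferon, was called. Their median change was -0.76 and 7 members were wholly lower, beside 7.51% of all genes. The largest was Ido1, which degrades tryptophan, at -2.47 ± 0.75 (adjusted p = 0.111). All 15 measured genes of class I peptide loading and the immunoproteasome had lower means, none was called, and the median was -0.39. Of the MHC class II pathway genes, which present antigen to CD4 T cells, 8 of 9 had higher means (median 0.25, none called), with H2-Aa at 0.36 ± 0.18 (adjusted p = 0.307). The difference between these lists was not tested.

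Among nucleic acid sensors, 2 of 13 fell, beside 0.654% of all genes. Ddx58, which encodes the RNA sensor RIG-I, was at 8.66, 9.20, 8.63 and 8.40 with isotype and at 8.03, 7.19, 7.17 and 7.75 with anti-IFNAR1 (-1.18 ± 0.25, adjusted p = 0.0337). Tlr7, an endosomal sensor of single-stranded RNA, fell by 0.90 ± 0.17 (adjusted p = 0.0174) on the probe set used, while dimmer probe sets of the gene changed by 0.38 and 0.27. Of 7 Schlafen genes, Slfn4 fell, beside 0.654% of all genes, and the median was -1.02. Slfn4, which is expressed in myeloid cells, was at 11.12, 10.94, 10.25 and 8.60 with isotype and at 7.81, 6.61, 6.95 and 7.19 with anti-IFNAR1, a change of -3.09 ± 0.54 (adjusted p = 0.0122). Leaving out 1 array at a time, Slfn4 was called in 7, Tlr7 in 5 and Ddx58 in 2 of the 8 fits. Slfn4 kept its call with the Gapdh ratio as a covariate and Ddx58 and Tlr7 lost theirs, and without the arrays above a ratio of 4 none of these genes was called. None of 6 other interferon regulatory factors was called, and their median change was -0.33.

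The largest called falls were in chemokines that attract monocytes. Ccl2, the main ligand of CCR2, was at 10.74, 10.64, 10.84 and 10.003 with isotype and at 7.98, 5.82, 7.81 and 6.43 with anti-IFNAR1. The groups were far apart, with a change of -3.55 ± 0.66 (adjusted p = 0.0174), or 11.7-fold. Ccl7, another CCR2 ligand, was at 9.95, 10.61, 10.71 and 9.67 against 7.43, 6.004, 7.31 and 6.67, a change of -3.38 ± 0.55 (adjusted p = 0.00839). Ccl3, a ligand of CCR1, was at 8.24, 8.83, 8.45 and 8.12 against 7.24, 5.49, 7.23 and 6.11, a change of -1.89 ± 0.36 (adjusted p = 0.0188). Ccl7 kept its call without any 1 array (highest adjusted p 0.046), while Ccl2 was called in 3 and Ccl3 in 4 of the 8 fits. Ccl3 and Ccl7 kept their calls with the Gapdh ratio as a covariate and Ccl2 lost its call, and without the arrays above a ratio of 4 none of the 3 was called. They were the called ones of 10 measured monocyte chemokines and receptors, beside 0.654% of all genes, and the list's median change was -1.70. The receptor gene Ccr2 itself changed by 0.77 ± 0.44 (adjusted p = 0.389).

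All 4 genes of the CXCR3 axis had lower means and did not overlap between groups, beside 7.51% of all genes. Cxcr3, the receptor on effector T cells, fell by 1.48 ± 0.28 (adjusted p = 0.018) and was called in 5 of the 8 fits without 1 array. It kept its call with the Gapdh ratio as a covariate and lost it without the arrays above a ratio of 4. Its ligands Cxcl9, Cxcl10 and Cxcl11, induced by both types of interferon, changed by -1.62 ± 0.90, -1.90 ± 0.70 and -2.03 ± 0.67 and did not pass (adjusted p = 0.379, 0.177 and 0.138). Neutrophil chemokines and receptors had a median of -1.93 with 0 of 7 called. Their isotype values spread widely, as for Cxcl5 at 11.47, 8.19, 8.30 and 4.53 against 5.45, 4.52, 4.56 and 4.57 (adjusted p = 0.0656). Of 12 lymphoid and homeostatic chemokines none was called. The B cell chemokine Cxcl13 was at 13.57, 12.46, 11.63 and 12.38 with isotype and 10.90, 10.57, 10.02 and 9.91 with anti-IFNAR1, a change of -2.16 ± 0.81 (adjusted p = 0.184).

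Most T cell transcripts had lower means with anti-IFNAR1. Of 16 measured genes of the T cell receptor complex and T cell identity, 15 had lower means and 6 fell (Cd3g, Cd8b1, Cd28, Cd3d, Cd5 and Cd247), beside 0.654% of all genes. The median was -1.07 and 10 members were wholly lower, beside 7.51% of all genes. In bulk skin, fewer T cells and less of these RNAs per cell cannot be told apart. The list mean was 7.49, 7.69, 8.04 and 7.56 on isotype arrays and 6.91, 6.31, 6.87 and 6.93 on anti-IFNAR1 arrays, with syngeneic arrays between 5.30 and 6.02. All anti-IFNAR1 arrays thus lay between the syngeneic and the isotype arrays.

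Cd8b1, a chain of the CD8 coreceptor, was at 6.39, 7.05, 6.73 and 6.70 with isotype and at 5.59, 4.52, 4.81 and 4.99 with anti-IFNAR1 (-1.74 ± 0.23, adjusted p = 0.00286). Cd3d, a CD3 signalling chain, was at 8.61, 8.90, 9.10 and 8.95 against 7.50, 6.83, 7.82 and 8.03 (-1.34 ± 0.23, adjusted p = 0.0102). Cd3g was at 7.09, 8.03, 8.11 and 8.54 against 6.94, 5.71, 5.93 and 6.18 (-1.75 ± 0.29, adjusted p = 0.01). In each the groups were separate, narrowly so for Cd3g through isotype replicate 1 and anti-IFNAR1 replicate 1. Cd28, the main costimulatory receptor, fell by 1.37 ± 0.21 (adjusted p = 0.00592) and Cd5 by 1.30 ± 0.25 (adjusted p = 0.0216). Other members did not pass, including Cd3e (-0.34 ± 0.42, adjusted p = 0.779), Cd4 (-1.21 ± 0.41, adjusted p = 0.149) and Cd8a (-0.69 ± 0.27, adjusted p = 0.203). With the Gapdh ratio as a covariate 5 of the list's genes were called, the 6 above less Cd5, beside 0.324% of all genes. Without the arrays above a ratio of 4 there were 3 (Cd8b1, Cd3d and Cd28), beside 0.0879%, and with the 8 arrays alone 0.

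Of 14 costimulatory and inhibitory receptors, 2 fell, beside 0.654% of all genes. Pdcd1, which encodes PD-1, was at 7.46, 6.86, 6.77 and 6.36 with isotype and at 4.98, 4.89, 5.49 and 5.21 with anti-IFNAR1, a change of -1.72 ± 0.24 (adjusted p = 0.00286). Havcr2, which encodes TIM-3, was at 6.47, 6.19, 5.94 and 5.78 against 5.47, 4.98, 4.78 and 5.37 (-0.95 ± 0.17, adjusted p = 0.0144). Both genes mark chronically stimulated T cells, and Havcr2 is found on myeloid cells too. Of 15 cytotoxic lymphocyte genes 14 had lower means, 10 were wholly lower, beside 7.51% of all genes, and 3 fell, beside 0.654%. Fasl, the ligand of the death receptor FAS, was at 6.06, 6.55, 6.59 and 6.27 against 4.84, 4.53, 5.57 and 4.76 (-1.44 ± 0.20, adjusted p = 0.00286). The activating receptor gene Klrk1 fell by 1.20 ± 0.24 (adjusted p = 0.0229) and the perforin gene Prf1 by 0.51 ± 0.10 (adjusted p = 0.0212), with Prf1 between 4.52 and 5.32 on all 8 arrays. Gzmb, the granzyme B gene, had separate groups at 11.14 to 12.10 and 8.67 to 9.84 but did not pass (-2.27 ± 0.67, adjusted p = 0.0985). Cd3g, Cd3d, Cd8b1, Cd28, Pdcd1 and Fasl kept their calls without any 1 of the 8 arrays; Cd5 was called in 4, Havcr2 in 6, Klrk1 in 3 and Prf1 in 4 of these fits, with a highest adjusted p of 0.093. Pdcd1, Havcr2 and Fasl stayed called with the Gapdh ratio as a covariate, without the arrays above a ratio of 4 Pdcd1 and Fasl did, and Klrk1 and Prf1 lost their calls in both fits.

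Macrophage and monocyte genes were mostly lower, with 23 of 24 lower means, 3 genes that fell, beside 0.654% of all genes, and a median of -1.33. Clec4e, a receptor for mycobacterial glycolipid and dead cells, was at 8.45, 7.995, 8.03 and 7.51 with isotype and at 5.31, 5.0, 7.77 and 5.52 with anti-IFNAR1. It fell by 2.10 ± 0.43 (adjusted p = 0.0252) although anti-IFNAR1 replicate 3 lay within the isotype range. Itgam, which encodes CD11b, was at 8.18, 7.56, 7.62 and 6.85 against 6.09, 5.40, 5.48 and 5.66 (-1.90 ± 0.42, adjusted p = 0.0389). Ms4a7 fell by 1.497 ± 0.33 (adjusted p = 0.0374). Each of these 3 was called in 2 of the 8 fits without 1 array, and Clec4e kept its call with the Gapdh ratio as a covariate (adjusted p = 0.049) and without the arrays above a ratio of 4 (adjusted p = 0.000784), where Itgam and Ms4a7 lost theirs in both fits. Csf1r, the receptor for the macrophage growth factor CSF1, had separate groups in the other direction, at 12.83 to 13.10 with isotype and 13.13 to 13.46 with anti-IFNAR1 (0.25 ± 0.16, adjusted p = 0.44). Cd68 changed by -1.41 ± 0.37 (adjusted p = 0.073).

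Other myeloid and lymphoid lists held no called gene. Fc gamma receptors had a median of -1.28 over 5 genes, led by Fcgr1 at 10.43, 10.77, 9.99 and 9.999 against 9.25, 7.53, 8.50 and 8.55 (-1.84 ± 0.49, adjusted p = 0.0732). All 10 complement genes had lower means and 8 were wholly lower, beside 7.51% of all genes, with Cfb, factor B of the alternative pathway, at -1.66 ± 0.45 (adjusted p = 0.082). Neutrophil granule genes had a median of -1.19 over 10 genes, none with separate groups. S100a8, a calprotectin subunit that keratinocytes also make under stress, was at 14.15, 11.98, 11.89 and 8.22 with isotype and at 8.89, 7.50, 10.09 and 7.85 with anti-IFNAR1. The wide isotype range ran from replicate 1 to replicate 4, and the change of -2.98 ± 0.94 did not pass (adjusted p = 0.124). B and plasma cell genes and Langerhans and dendritic cell genes had medians of 0.00, and mast cell genes -0.36.

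Further genes among the largest falls belong to other roles. Epgn, which encodes the epidermal growth factor receptor ligand epigen, was at 11.47, 9.03, 8.85 and 7.22 with isotype and at 6.55, 5.76, 5.64 and 5.71 with anti-IFNAR1, a change of -3.23 ± 0.69 (adjusted p = 0.0339). Tfec, a transcription factor gene expressed in macrophages, was at 8.81, 8.84, 8.98 and 8.20 against 6.93, 5.82, 6.51 and 5.85 (-2.43 ± 0.48, adjusted p = 0.0232). Dab2, an endocytic adaptor, was at 12.50, 11.95, 11.50 and 10.43 against 10.24, 9.57, 8.80 and 9.28 (-2.12 ± 0.47, adjusted p = 0.0389). In all 3 genes the isotype arrays lay above every anti-IFNAR1 array, but the largest falls were chosen among called genes without overlap. Their separation is therefore no further support. Ms4a6b and the receptor gene Gpr171 fell by 2.04 ± 0.44 (adjusted p = 0.0335) and 2.01 ± 0.39 (adjusted p = 0.0212). Epgn, Dab2, Ms4a6b and Gpr171 were each called in 2 of the 8 fits without 1 array, and Tfec in 3. Pgap6 fell by 2.98 ± 0.61 (adjusted p = 0.0264) with overlapping groups, through isotype replicate 4 at 6.57 and anti-IFNAR1 replicate 1 at 6.62. The purinergic receptor gene P2ry13, named after its values were seen, had separate groups, at 6.94, 6.91, 6.96 and 6.46 against 5.66, 4.91, 4.86 and 5.12. P2ry13 fell by 1.68 ± 0.20 (adjusted p = 0.00124), a call that held without any 1 array. P2ry13 also stayed called with the Gapdh ratio as a covariate and without the arrays above a ratio of 4, while Epgn, Tfec, Dab2, Ms4a6b, Gpr171 and Pgap6 lost their calls in both fits.

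**Figure D4:**
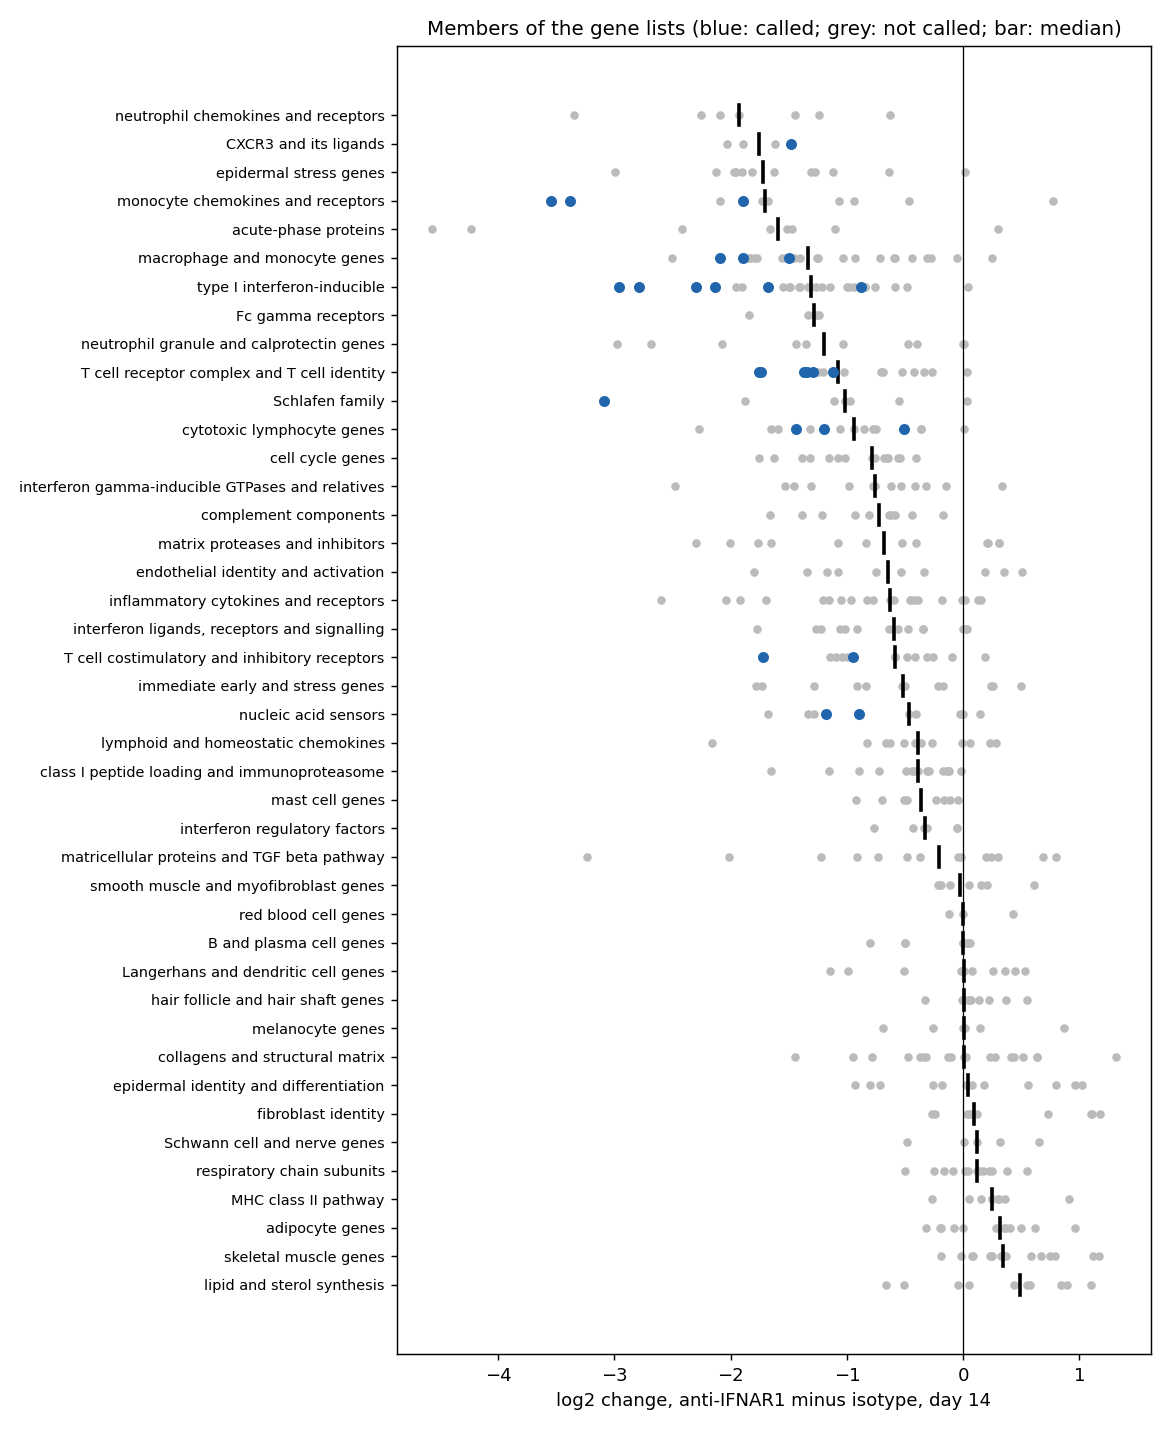
Change, anti-IFNAR1 minus isotype at day 14 (log2), of each measured member of the 42 gene lists; each point is 1 gene, blue where called and grey where not, and black bars are list medians. Called members stand in 9 lists, all of them to the left of 0.

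Epidermal stress genes, the keratins and small proline-rich proteins that keratinocytes switch on in wounds and inflammation, had a median of -1.72 over 12 genes with none called and none separate. Their mean was 12.20, 11.19, 11.21 and 7.54 on isotype replicates 1 to 4 and 9.96, 8.16, 9.22 and 8.56 on anti-IFNAR1 replicates. Isotype replicate 4 lay below all anti-IFNAR1 arrays, and without it 8 of the 12 genes were called lower, beside 2.13% of all genes in that fit. The array was singled out for low values in lists such as this, so leaving it out widens their differences by construction. Its omission is no support for a change in these lists. Over all genes, leaving out any other of the 8 arrays gave 32 to 210 calls. Among acute-phase genes isotype replicate 4 was low as well. Saa1, a serum amyloid gene, was at 11.61, 7.66, 11.96 and 4.78 with isotype and at 5.25, 4.47, 4.82 and 4.55 with anti-IFNAR1 (-4.23 ± 0.999, adjusted p = 0.053), and without isotype replicate 4 the list held 4 genes called lower of 8, beside the same 2.13%. The cytokine Il6 was at 10.59, 7.08, 7.32 and 4.51 against 4.52, 4.49, 5.58 and 4.50 (-2.60 ± 0.82, adjusted p = 0.121). None of 21 inflammatory cytokines and receptors was called with all arrays (median -0.63), and 5 were called lower without isotype replicate 4, beside 2.13% of all genes. Tnf changed by -0.63 ± 0.32 (adjusted p = 0.341).

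Cell cycle genes had lower means in 15 of 15 members, with a median of -0.78, 7 members wholly lower, beside 7.51% of all genes, and none called. Ccnb2, a mitotic cyclin gene, was at 8.52, 8.95, 8.77 and 8.24 with isotype and at 7.65, 6.67, 6.70 and 6.94 with anti-IFNAR1 (-1.63 ± 0.54, adjusted p = 0.138). Endothelial genes had a median of -0.64 over 10 genes. Icam1, an adhesion molecule of activated endothelium and other cells, was at 10.73, 11.26, 10.94 and 10.99 against 9.68, 9.49, 10.13 and 9.95 (-1.17 ± 0.28, adjusted p = 0.0522). The groups of Icam1 were separate and its p lay just past the threshold.

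No list of structural genes of the dermis held a called gene. Collagens and structural matrix genes had a median of 0.01 over 19 genes, 9 lower and 10 higher, with changes from -1.44 to 1.32. Their mean was 10.02 on anti-IFNAR1 replicate 3, the array with the highest Gapdh ratio of the 8. It was 11.03 to 11.06 on the other anti-IFNAR1 arrays. Col1a1, a chain of type I collagen, ran from 10.59 to 12.17 with isotype and from 9.56 to 11.84 with anti-IFNAR1 (-0.13 ± 0.78). Smooth muscle and myofibroblast genes had a median of -0.03, which became 0.08 after centring and 0.05 after quantile normalization. Their mean was 9.32 on isotype replicate 4 and 8.52 to 8.63 on the other isotype arrays. Among matricellular proteins and genes of the TGF beta pathway, with a median of -0.21, Thbs1, which can activate latent TGF beta, was at 9.40, 10.09, 9.16 and 8.69 against 7.31, 6.43, 5.54 and 5.10. Its groups were separate, and the change of -3.24 ± 0.86 did not pass (adjusted p = 0.0739). Tgfb1 changed by -0.91 ± 0.32 (adjusted p = 0.16). Matrix proteases and inhibitors had lower means in 8 of 12 members and a median of -0.68, with Timp1 at -2.005 ± 0.66 (adjusted p = 0.14). Fibroblast identity genes had higher means in 8 of 10 members and a median of 0.10, with the protease gene Fap at 1.17 ± 0.29 (adjusted p = 0.0636) and the dermatopontin gene Dpt at 1.10 ± 0.30 (adjusted p = 0.0803). Epidermal identity genes and hair genes had medians of 0.04 and 0.00.

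The 29 genes that rose belonged to none of the lists' measured members. All 29 had separate groups, beside 4.56% of all genes wholly higher. The calls and the separation come from the same 8 arrays, so the separation is no further support. Nuak1, a kinase related to AMPK, was at 7.37, 8.44, 8.65 and 9.46 with isotype and at 10.52, 11.05, 10.59 and 11.03 with anti-IFNAR1, a rise of 2.32 ± 0.44 (adjusted p = 0.0188), or 4.99-fold. Dpep1, a membrane dipeptidase, was at 8.18, 7.97, 7.58 and 8.99 against 9.49, 10.001, 9.86 and 10.10 (1.68 ± 0.37, adjusted p = 0.0389). Foxq1, a forkhead factor of the hair follicle, rose by 1.66 ± 0.39 (adjusted p = 0.0495). In all 3 the syngeneic arrays reached above the isotype arrays, as for Nuak1 at 9.31 to 11.43.

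Hoxc8, a positional homeobox gene, was at 8.54, 9.21, 8.59 and 9.08 with isotype and at 9.76, 10.19, 9.82 and 10.50 with anti-IFNAR1 (1.21 ± 0.22, adjusted p = 0.0174). Itgb5, an integrin chain that pairs with alpha V, was at 9.57, 9.70, 10.02 and 10.43 against 10.66, 11.03, 11.004 and 11.27 (1.06 ± 0.23, adjusted p = 0.0339). The other named rises, from 0.88 to 1.24, were Diras2, Zfp974, Stox2, H2bc21, Pgap4, Mturn and Mkrn1. Of Mkrn1's other probe sets, 3 changed the other way, by -0.14, -0.42 and -0.80. Each of these 12 named rises lost its call in at least 3 of the 8 fits without 1 array. Mkrn1 kept its call with the Gapdh ratio as a covariate and the others of the 12 lost theirs. Without the arrays above a ratio of 4 none of the 12 was called. Among the remaining genes that rose, Adam4 and Angptl7 were called in both fits, with changes of 0.22 and 0.45 with the covariate. Lncpint was called only without the high-ratio arrays (0.26). Skeletal muscle genes had higher means in 14 of 16 members (median 0.34, 5 wholly higher, beside 4.56% of all genes, none called), and lipid and sterol synthesis genes a median of 0.49 over 10 genes, with Acaca at 1.10 ± 0.41 (adjusted p = 0.187). Lipid genes moved with isotype replicate 4 too, whose Acaca level of 11.43 lay within the anti-IFNAR1 range of 10.91 to 11.66.

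The same antibody contrast at day 28, on 8 other arrays, gave 2422 calls (13.3% of genes), 890 lower and 1532 higher. Of the 119 genes that fell at day 14, 110 (92.4%) had lower means at day 28, beside 51.6% of all genes, and 62 (52.1%) fell, beside 4.89%. None rose. Their median change was -1.13 at day 14 and -0.60 at day 28. The genes were chosen on the day 14 arrays, which enlarges the day 14 median, so the 2 medians do not rank the days. Of the 29 that rose at day 14, 24 (82.8%) had higher means at day 28, beside 48.4% of all genes, and 9 (31.0%) rose, beside 8.42%. Among individual genes, Slfn4 changed by -3.09 at day 14 and -4.35 at day 28, Ccl3 by -1.89 and -3.74, Ccl2 by -3.55 and -2.18, and Oasl1 by -2.96 and -1.71. Both days share the pooled spread but no array of this contrast.

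**Figure D5:**
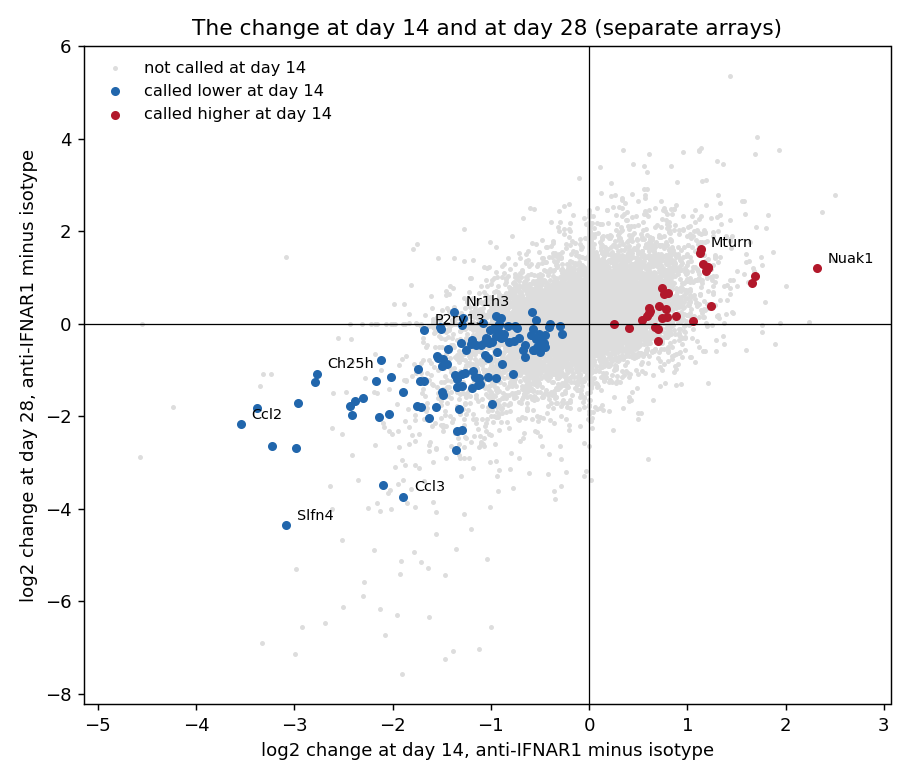
Change with anti-IFNAR1 against isotype (log2) at day 14 (horizontal) and day 28 (vertical), from separate arrays; each point is 1 gene, blue and red where it fell or rose at day 14. Of the blue genes 110 of 119 lie below 0 at day 28, and P2ry13 and Nr1h3 lie near 0.

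The difference between the days itself was tested in the same fit and called 13 genes (0.0715%). P2ry13 was the one of these that had also been called at day 14, with changes of -1.68 at day 14 and -0.12 at day 28 (difference 1.56, adjusted p = 0.0377). The isotype mean of P2ry13 was 6.82 at day 14 and 5.29 at day 28, and the anti-IFNAR1 mean 5.14 and 5.17. The groups thus drew together through a lower isotype level. The other 12 changed by between -0.17 and 0.34 at day 14. Sprr2k, a small proline-rich protein gene, changed by -0.10 and -1.85 (adjusted p of the difference 1.19e-07), Lce1g, a cornified envelope gene, by -0.11 and -1.25 (0.00206), and Fabp4, the adipocyte fatty acid binding protein, by -0.08 and 1.68 (0.0377). Nr1h3, named after its values were seen, fell by 1.37 at day 14 and changed by 0.26 at day 28, and its difference did not pass (adjusted p = 0.112).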

How the data were processed

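Gene expression was measured on 24 arrays, 4 in each of 6 groups taken from the sample titles. The deposited values are probe set intensity values on a linear scale, from 1.68 to 92640, with array medians from 14.8 to 17.7; the authors' summarisation and normalisation steps are not given in the sources used here. RNA was, per the labels, isolated by a fibrous tissue kit and biotin-labelled by the standard Affymetrix protocol. Of 45101 probe sets, 64 controls, 932 with several gene symbols and 9160 without one were left out of the gene comparisons. Of the 34945 with 1 symbol, the brightest per gene was kept, giving 18193 genes, 9010 of them with several probe sets; 34741 symbols were updated through RefSeq gene identifiers. No 2 arrays held identical values.

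From the deposited intensity values, log2(intensity + 16) was computed without further normalization. A mean for each of the 6 groups was fitted to all 24 arrays with limma 3.58.1 (lmFit and eBayes, R 4.3.3; 18 residual degrees of freedom, prior 0.71), with two-sided p-values adjusted by Benjamini-Hochberg over all genes at a threshold of 0.05. The fit was tested on simulated data. Tables were made with Python 3.11.15, pandas 2.3.3 and numpy 2.4.6. Gene lists (42, with 549 members of which 498 were measured) are described by counts and medians and carry no test. Named genes are the 20 largest falls and 12 largest rises among called genes without overlap, up to 5 called members of each list (or, where fewer than 2 were called, the 2 with the strongest test), and a set of interferon and cytokine genes; the text names part of them and some further list members. The members, lists and tests were chosen with earlier results of these data known. The number of arrays limits the precision. Promoters are RefSeq's of GRCm38.p6, and no probe positions were used. Alternatives covered the offset, quantile normalization and centring, a filter on dim genes, the mean of probe sets, a trended prior, the replicate number as a block, weights per array, a 2-fold minimum, the Gapdh ratio as a covariate, leaving out arrays, and fits of fewer arrays.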

Additional observations from a re-analysis of the deposited data

Results flagged for a closer look

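In a group of 4 arrays, an array was noted when its gap to the nearest other array was larger, relative to the group's range, than the critical value of Dixon's test for 4 values. Of 178 groups examined, 10 were noted. Chance alone notes about 1 in 20, so the total is near the share that chance gives. Isotype replicate 4 stood apart 6 times. It was low for Ch25h (6.86, others 9.02 to 9.30), P2ry13 (6.46, others 6.91 to 6.96), the mean of monocyte chemokines and receptors (9.97, others 10.65 to 10.76), the mean of T cell costimulatory and inhibitory receptors (6.65, others 7.02 to 7.07) and the mean of cell cycle genes (8.81, others 9.60 to 9.68). It was high for the mean of smooth muscle and myofibroblast genes (9.32, others 8.52 to 8.63). Of the anti-IFNAR1 arrays, replicate 1 was high for Epgn (6.55, others 5.64 to 5.76) and replicate 2 low for the mean of the T cell receptor complex and T cell identity genes (6.31, others 6.87 to 6.93). Replicate 3, whose Gapdh 3'/5' log2 ratio was the highest of the 8 arrays (4.81), was low for the mean of collagens and structural matrix genes (10.02, others 11.03 to 11.06) and high for the mean of red blood cell genes (7.03, others 5.35 to 5.54).

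The change of P2ry13 with anti-IFNAR1 differed between days by 1.56 on the log2 scale (limma, adjusted p = 0.0377). Its 4 anti-IFNAR1 values at day 14 all lay below the 4 isotype values. The isotype mean was 6.82 at day 14 and 5.29 at day 28, and the anti-IFNAR1 mean 5.14 and 5.17.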

How the results depend on the processing

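At day 14, the 148 calls became 2596 with array weights, 241 without genes of a mean under 5, 236 with the mean of a gene's probe sets, 84 with a 2-fold minimum, 67 with the Gapdh ratio as a covariate, 19 without arrays of a ratio above 4, 2 with the 8 arrays compared and 0 with the 12 arrays of day 14 (limma, 2538 genes at an unadjusted p under 0.05). Leaving out each array in turn gave 32 to 625. Offsets of 1 and 64, quantile normalization, centring and a trended prior gave 124 to 173. Of the 47 named called genes none changed sign under any alternative; 38 lost their call without the high-ratio arrays and 29 with the covariate. At day 28, the 2422 calls became 4860 with array weights, 1340 with a 2-fold minimum and 1539 with the 8 arrays compared, and leaving out each array gave 1668 to 2829. For the difference between days, 13 calls became 117 after centring, 1224 with array weights, 6 with the covariate, 57 without dim genes, 27 and 25 with offsets of 1 and 64, 2 with the 16 GVH-SSc arrays, 42 after quantile normalization, 20 with the trended prior, 8 without high-ratio arrays, and 2 to 106 without each array. The Gapdh ratio difference of 2.01 was 1.53 to 2.42 without each array, the latter with exact p = 0.0286, and 1.56 for beta-actin. The cause of these shifts was not tested. Some of the alternatives use fewer arrays or genes than the main fit. Same-numbered isotype and anti-IFNAR1 arrays of day 14 did not deviate together (correlations -0.098, 0.073, -0.035 and -0.0058), so the numbers are not taken as pairs; with the replicate number as a block, 64 genes were called at day 14, 2213 at day 28 and 19 for the difference between days, and no array correlated best with its own number.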
